A study of Mus musculus with 8 samples.

Results

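Messenger RNA counts of 85 genes from 5 families of detoxifying enzymes were compared between CT26 cells carrying a knockout of Tead1 and Tead4 (KO, 4 libraries) and unedited CT26 cells (WT, 4 libraries). The genes were chosen by symbol from the 26642 rows of the count table: symbols that begin with Ces, Fmo, Akr or Aldh and a digit, or with Gst, a class letter (a, m, p, t, k, o or z) and a digit, with Aldh1l2 left out. They comprise 19 carboxylesterase genes (Ces), 7 flavin-containing monooxygenase genes (Fmo), 17 aldo-keto reductase genes (Akr), 22 cytosolic and related glutathione S-transferase genes (Gst) and 20 aldehyde dehydrogenase genes (Aldh). CT26 is a mouse colon carcinoma line, and TEAD1 and TEAD4 are DNA-binding proteins through which the Hippo pathway effectors YAP and TAZ act on genes. Cells of both genotypes were kept in the same serum-containing medium, per the labels. The labels do not say whether the KO cells are a single clone or a pool, which exons were edited, or whether the libraries of a genotype came from separate cultures. The p-values therefore reflect the scatter among these 8 libraries alone, and that scatter may be technical.

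The 5 families act on foreign compounds and on the body's own reactive metabolites. Carboxylesterases cleave esters and amides, including lipid esters, in the endoplasmic reticulum; flavin-containing monooxygenases add oxygen to nitrogen and sulphur atoms there; aldo-keto reductases and aldehyde dehydrogenases reduce or oxidise aldehydes and ketones, retinaldehyde and steroids among them; glutathione S-transferases join glutathione to electrophiles. Many of these genes are best known from liver, and the colon epithelium uses the same enzyme classes against dietary compounds. Members of a family often lie side by side in the genome and resemble each other in sequence.

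Levels are CPM, counts relative to the library total after adjustment by TMM factors, and levels of different genes are compared only as CPM per kilobase of exon. Log2 fold changes are KO minus WT, each with a standard error (SE), and adjusted p-values come from edgeR's two-sided quasi-likelihood test with Benjamini-Hochberg adjustment over 13265 rows. Total counts per library lay between 29679405 and 32774905, at which 3 counts are worth 0.0873 to 0.11 CPM. KO replicate 1 had 14345 rows above 0, against 17759 to 17948 in the other KO libraries and 14566 to 15430 in WT. WT replicates 1 and 4 resembled each other, as did WT replicates 2 and 3 (chi-square per degree of freedom 34.7 and 35.0, against 201.5 to 241.5 for the remaining WT pairs). Tead1 had 51.15, 64.8, 76.3 and 77.8 CPM in the KO libraries and 319, 155, 142 and 209 CPM in WT, with no overlap (log2 fold change -1.61, SE 0.27, adjusted p = 0.00217; exact two-sided permutation p = 0.0286, the smallest that 70 assignments can give). Tead4 had 25.85, 23.3, 31.2 and 37.0 CPM in the KO libraries and 52.1, 36.7, 39.4 and 63.2 CPM in WT, which overlapped (log2 fold change -0.705, SE 0.22, adjusted p = 0.0261; exact permutation p = 0.0571). Of 8 colon epithelium markers Epcam was at 0 in all 8 libraries, and the summed level, 71.2 to 89.6 CPM in KO and 36.4 to 43.5 CPM in WT, was nearly all Krt18. Of 8 hepatocyte markers Apoa2, Cyp2e1, Cyp3a11 and Fgb were at 0 in all libraries, and the sum was 1.13 to 1.55 CPM in KO and 0.368 to 0.539 CPM in WT. The sums of the adipocyte and leukocyte markers were also low, at 0.703 to 1.13 and 1.16 to 4.17 CPM in KO against 0.0736 to 0.248 and 0 to 0.478 CPM in WT. Cfd, Lep, Cd3e and Adgre1 were at 0 throughout. The 3 endothelial markers summed to at most 0.122 CPM in KO and 0.101 CPM in WT. Fibroblast markers, of which 5 of 6 were tested, summed to 1680 to 2130 CPM in KO and 1390 to 2080 CPM in WT. These ranges overlapped, and the sum was mostly Col1a2 and Col1a1, which did not pass (log2 fold changes 0.099 and 0.121). Pdgfra (2.164), Pdgfrb (1.095) and Dcn (1047 counts in KO and 4 in WT) passed as higher in KO, without overlap. Lum, which was not tested, had 36 counts in KO and 0 in WT. In such bulk samples, more cells of a type and more RNA per cell cannot be told apart.

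Of the 85 members, 69 had at least 1 count in some library, 16 were at 0 in all 8 and 46 had enough counts to be tested. Of all 26642 rows, 20532 had at least 1 count. The tested share was 54.1%, against 49.8% of all rows. Counts were seen for 67 members in the KO libraries and for 55 in WT, and the mean reached 1 CPM for 44 members in KO and 28 in WT. Single libraries had 48 to 59 members above 0 in KO and 39 to 50 in WT. Over all rows these ranges were 14345 to 17948 in KO and 14566 to 15430 in WT, so the higher upper end in KO was not limited to the members. KO replicate 1 had fewer rows above 0 than any WT library, but its 48 members were within the WT range. The counts over pooled libraries and at 1 CPM were not set against all rows. All 14 members with counts in KO libraries only were under the filter, as were Aldh5a1 and Ces5a, which had counts in WT only. Detection differed between the families. Counts were seen for 13 of 19 Ces, 6 of 7 Fmo, 14 of 17 Akr, 18 of 22 Gst and 18 of 20 Aldh genes, and 7, 3, 10, 13 and 13 of them were tested.

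**Figure D1:**
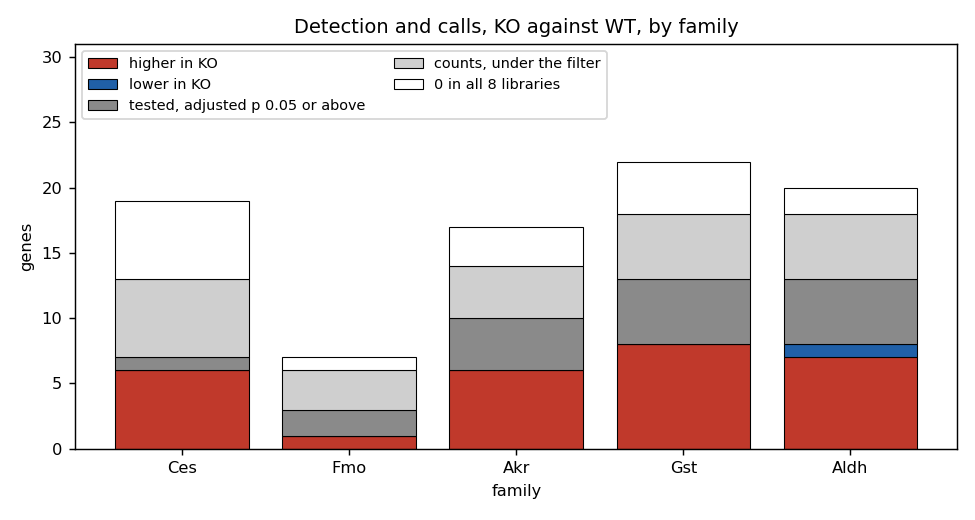
Stacked bars count the listed genes of each family (vertical axis, genes) by outcome of the edgeR test of 4 KO against 4 WT libraries. Of 85 genes, 28 were higher in KO, 1 was lower, 17 were tested without passing, 23 had counts but were under the filter and 16 were at 0.

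Of the 46 tested members 29 were called, where 41.6% of all tested rows were. In 28 of them (60.9% of the tested members) the level was higher in KO, where 20.9% of all tested rows were higher. Only Aldh18a1 was lower (2.17% of the tested members), where 20.6% of all rows were. At least 2-fold increases were found for 22 members, against 13.8% of all rows, and no member fell as far (8.56% of all rows). All 4 KO libraries lay above all 4 WT libraries for 27 members (21.1% of all rows) and below them for 1 (19.6% of all rows). The median log2 fold change of the tested members was 1.29, and that of all rows was 0.02. By family it was 3.10 for Ces, 1.55 for Fmo, 0.78 for Akr, 0.90 for Gst and 1.06 for Aldh (7, 3, 10, 13 and 13 genes), values that rest in part on genes below the filter in some WT libraries. With upper-quartile factors or library size as the scaling, the median of all rows moved to 0.20, that of the members to 1.44, and 29 members were higher.

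**Figure D2:**
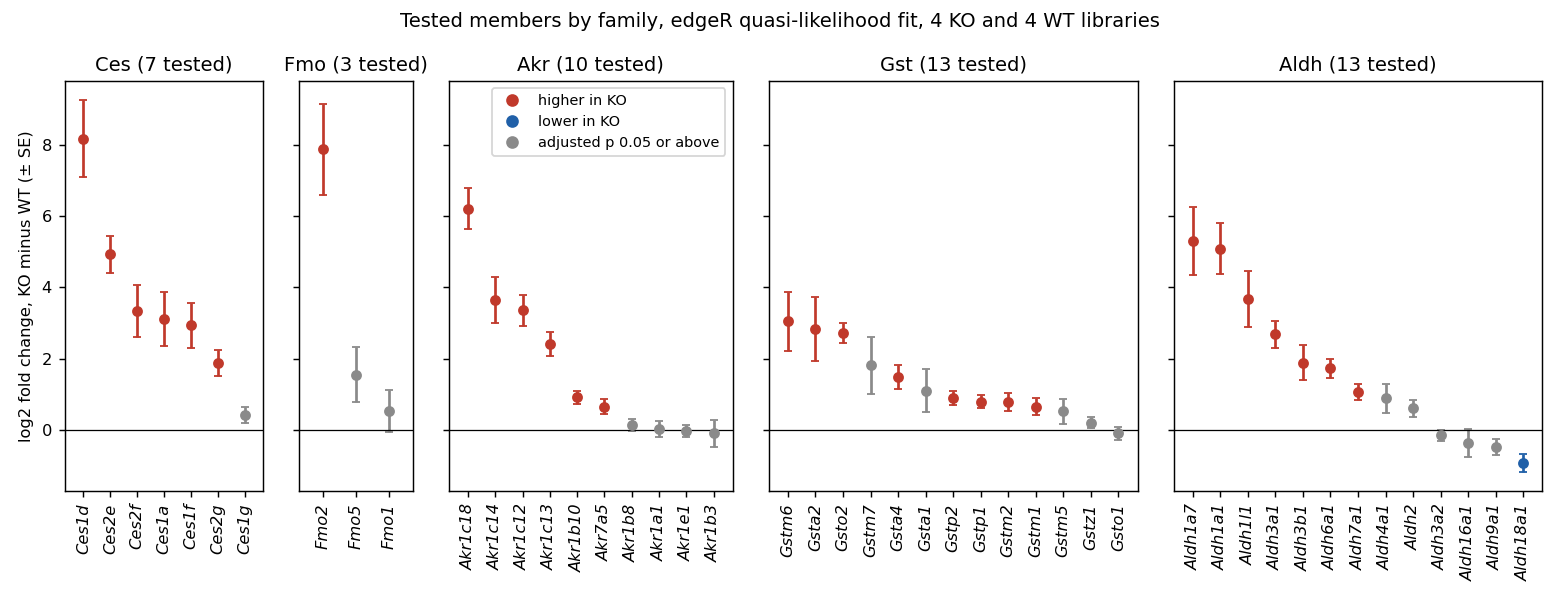
Points are log2 fold changes of the 46 tested members, KO minus WT (vertical axis), with bars of 1 SE, in 1 panel per family. Red points passed the test as higher, the blue point (Aldh18a1, -0.93) as lower and grey points did not pass; the largest increases were Ces1d (8.17), Fmo2 (7.86) and Akr1c18 (6.20).

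Some members could pass the filter on low counts only through the KO libraries, where they were high, so the members were also read by their WT level. In 30 of the 46 all 4 WT libraries were above the filter. Of these, 15 were higher in KO and 1 (3.33%) was lower, with a median log2 fold change of 0.715. Among 11822 rows of the same kind, 18.1% were higher and 23.1% were lower, with a median of -0.06. Of the other 16 members 13 were higher, in a class of 1443 rows where 44.6% were higher. By family, the median log2 fold change of the members above the filter in all 4 WT libraries was 1.88 for Ces (3 genes), 0.126 for Akr (7 genes), 0.787 for Gst (10 genes) and 0.747 for Aldh (10 genes), and no Fmo gene was among them. The other 16 had medians of 4.13 for Ces (4 genes), 1.55 for Fmo (3 genes), 3.65 for Akr (3 genes), 2.83 for Gst (3 genes) and 5.09 for Aldh (3 genes). The 1443 rows of that class also had a raised median, 1.55, which the Fmo genes did not exceed.

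Among the 7 tested carboxylesterase genes, 6 rose and Ces1g did not pass. The 4 with the largest fitted increases, Ces1d, Ces2e, Ces2f and Ces1a, were not above the filter in all WT libraries. Ces1d (ENSMUSG00000056973, chromosome 8, 93166068 to 93197838, minus strand, GRCm38) encodes a triacylglycerol hydrolase of liver and fat tissue. It had 11.15, 169.7, 97.95 and 84.7 CPM in the KO libraries and 0, 0.751, 0.472 and 0 CPM in WT. The genotypes did not overlap, and KO replicate 1 was far below the other KO libraries. This gave a log2 fold change of 8.17 (SE 1.09, adjusted p = 0.000926), or 9.08 without WT replicate 2. Ces1f, another lipid ester hydrolase, had 5.245, 17.6, 19.7 and 18.5 CPM in the KO libraries and 0.368, 2.15, 1.52 and 3.94 CPM in WT, again with KO replicate 1 lowest of the KO libraries. Its log2 fold change reached 2.93 (SE 0.62, adjusted p = 0.00594). Ces1a, a neighbour of Ces1d, was at 3.58 to 7.08 CPM in KO and 0 to 1.33 CPM in WT (log2 fold change 3.10, SE 0.76, adjusted p = 0.0104; 3.74 without WT replicate 2). Ces1g, a liver lipid hydrolase and the most abundant Ces gene per kilobase in WT, averaged 14.45 ± 2.90 CPM in KO and 10.75 ± 2.39 CPM in WT (SD, n = 4 each), and its ranges overlapped (log2 fold change 0.43, SE 0.22, adjusted p = 0.146).

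The 3 tested Ces2 genes, which encode esterases known from liver and gut, all rose. Ces2e (ENSMUSG00000031886, chromosome 8, 104926260 to 104934672, plus strand) had 17.6, 9.075, 6.49 and 4.68 CPM in the KO libraries and 0.515, 0.307, 0.202 and 0.213 CPM in WT, and here KO replicate 1 was the highest KO library (log2 fold change 4.92, SE 0.53, adjusted p = 0.000426). Ces2g, the most abundant Ces2 gene per kilobase, had 47.9, 24.9, 35.3 and 36.3 CPM in KO and 18.2, 7.71, 5.93 and 7.31 CPM in WT (log2 fold change 1.88, SE 0.36, adjusted p = 0.00382). All KO values lay above all WT values, of which WT replicate 1 was the highest. Ces2f was the lowest of the 3 per kilobase, at 1.46 to 3.06 CPM in KO and 0 to 0.3755 CPM in WT (log2 fold change 3.33, SE 0.73, adjusted p = 0.00667). Its promoter is shown because it is 1 of 6 among increased members that hold the TEAD core letters GGAATG, here on the opposite strand and in capitals (RefSeq, GRCm38.p6, chr8:104947106-104947405, plus strand, from 250 bases before to 50 after the RefSeq start).
Ces2f: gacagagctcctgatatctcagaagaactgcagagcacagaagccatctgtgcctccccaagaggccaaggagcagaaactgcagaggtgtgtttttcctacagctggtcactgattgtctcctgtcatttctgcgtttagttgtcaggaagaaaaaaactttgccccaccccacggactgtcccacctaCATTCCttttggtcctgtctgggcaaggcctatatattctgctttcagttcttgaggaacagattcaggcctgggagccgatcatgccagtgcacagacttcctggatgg

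The 6 genes Ces1c, Ces2a, Ces2c, Ces2h, Ces3a and Ces3b were at 0 in all libraries. Another 6 had counts under the filter. Ces5a, an esterase known from the epididymis, went against the family: it had 0 counts in KO and 27 in WT, spread over all 4 WT libraries, which makes it at least 2.56-fold lower in KO against a floor of 3 counts per library. Without the filter its call was lower (edgeR adjusted p = 0.0183). Ces1e had 12 counts in KO and 0 in WT, Ces4a 22 and 2, Ces1b 6 and 0, Ces2b 7 and 0 and Ces1h 3 and 6.

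Of the 3 tested flavin-containing monooxygenase genes, Fmo2 rose. Fmo2 (ENSMUSG00000040170, chromosome 1, 162874317 to 162898726, minus strand), the main form of the lung, had 0.727, 29.3, 7.30 and 7.21 CPM in the KO libraries and 0.0736, 0.102, 0 and 0 CPM in WT. The 4 KO values did not overlap the WT values but spread widely, with KO replicate 1 near the WT level and KO replicate 2 highest. The fit gave a log2 fold change of 7.86 (SE 1.28, adjusted p = 0.00206), or 6.74 without KO replicate 2 and 8.65 without WT replicate 2. In counts, 1472 stood against 5, a ratio of 256 with a 95% exact binomial interval of 109 to 788, which covers counting error only. Fmo5, known from liver and intestine, had 0.126, 2.77, 1.54 and 1.56 CPM in the KO libraries and 0.331, 0.8875, 0.640 and 0.1775 CPM in WT, and KO replicate 1 was below all WT libraries (log2 fold change 1.55, SE 0.78, adjusted p = 0.133). Without KO replicate 1 it passed as higher (1.91, edgeR adjusted p = 0.0172). Fmo1, a kidney and liver form, stayed under 0.6 CPM in every library (log2 fold change 0.53, SE 0.59, adjusted p = 0.489). Under the filter, Fmo6 had 8 counts and Fmo9 had 2, all in KO, and Fmo4 was at 0 in all libraries.

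Among aldo-keto reductase genes the increases were sharpest in the steroid-active Akr1c group, where all 4 tested genes rose with a median log2 fold change of 3.498. Of these, Akr1c12, Akr1c14 and Akr1c18 were not above the filter in all WT libraries, so the count and the median rest in part on their high KO level. Akr1c18 (ENSMUSG00000021214, chromosome 13, 4132615 to 4150654, minus strand) encodes the 20-alpha-hydroxysteroid dehydrogenase that inactivates progesterone. It had 39.0, 113, 58.75 and 67.6 CPM in the KO libraries and 0.184, 1.195, 1.65 and 0.710 CPM in WT. Every KO library lay far above WT, KO replicate 2 highest and KO replicate 1 lowest (log2 fold change 6.20, SE 0.57, adjusted p = 0.000247). Akr1c14, a 3-alpha-hydroxysteroid dehydrogenase, had 9.32, 13.5, 12.97 and 12.65 CPM in the KO libraries and 0.294, 1.74, 1.65 and 0.142 CPM in WT (log2 fold change 3.65, SE 0.64, adjusted p = 0.00266). Its KO libraries were close together, while WT replicates 1 and 4 were well below WT replicates 2 and 3.

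Akr1c12 (ENSMUSG00000021211, chromosome 13, 4268176 to 4279433, minus strand) and Akr1c13 (ENSMUSG00000021213, chromosome 13, 4191150 to 4205596, plus strand) are close relatives on opposite strands of the same cluster. Akr1c12 had 7.87, 5.36, 3.61 and 3.97 CPM in the KO libraries and 0.662, 0.444, 0.7075 and 0.213 CPM in WT (log2 fold change 3.35, SE 0.44, adjusted p = 0.000895). Akr1c13 had 4.645, 3.93, 3.37 and 2.87 CPM in the KO libraries and 0.957, 0.614, 0.741 and 0.461 CPM in WT (log2 fold change 2.41, SE 0.34, adjusted p = 0.00117). In both genes the 4 KO libraries were above the 4 WT libraries and KO replicate 1 was the highest. The models share sequence: 28.6% of the 50-base windows of Akr1c12 and 24.2% of those of Akr1c13 occur in the other, so their separate levels are uncertain. Their promoters are printed to show that likeness and one difference in it (RefSeq, GRCm38.p6; Akr1c12 chr13:4279350-4279649, minus strand; Akr1c13 chr13:4190937-4191236, plus strand; capitals mark GGAATG).
Akr1c12: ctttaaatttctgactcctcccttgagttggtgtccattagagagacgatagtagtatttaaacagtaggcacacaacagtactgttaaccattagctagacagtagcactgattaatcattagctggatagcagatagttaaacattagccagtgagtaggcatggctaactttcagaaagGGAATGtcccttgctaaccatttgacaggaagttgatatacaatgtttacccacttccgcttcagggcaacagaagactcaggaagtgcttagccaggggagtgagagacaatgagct
Akr1c13: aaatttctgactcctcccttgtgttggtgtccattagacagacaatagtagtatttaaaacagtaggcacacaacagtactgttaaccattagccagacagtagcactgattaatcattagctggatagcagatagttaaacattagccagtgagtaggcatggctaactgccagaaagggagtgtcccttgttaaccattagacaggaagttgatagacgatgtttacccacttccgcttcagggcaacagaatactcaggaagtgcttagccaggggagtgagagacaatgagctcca
Aligned with a gap of 1 base, which Akr1c13 holds and Akr1c12 lacks, the 2 promoters were identical at 284 of 296 paired bases (95.95%). Inside the GGAATG of Akr1c12 they differ by A186G, with the base of Akr1c12 first and positions counted from 1 at the first printed base of Akr1c12, so Akr1c13 does not hold the letters at that place.

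Of the 6 tested Akr genes outside the Akr1c group, 2 rose, both by less than 2-fold. Akr1b10, an aldose reductase-like gene, was at 29.6, 26.4, 21.6 and 19.9 CPM in the KO libraries and 13.6, 14.6, 10.1 and 13.45 CPM in WT, without overlap (log2 fold change 0.91, SE 0.19, adjusted p = 0.00512). Akr7a5, which reduces aflatoxin dialdehyde and succinic semialdehyde, was at 24.1 to 34.3 CPM in KO and 12.7 to 22.4 CPM in WT, also without overlap (log2 fold change 0.65, SE 0.20, adjusted p = 0.0276). That call was lost when KO replicate 1, 2 or 3 or WT replicate 1 or 4 was left out (adjusted p between 0.0507 and 0.0745). Akr1a1, the general aldehyde reductase and the most abundant member of the family per kilobase, averaged 306.5 ± 65.6 CPM in KO and 300.4 ± 72.4 CPM in WT (SD, n = 4 each), with a log2 fold change of 0.03 (SE 0.22) that did not pass and was negative without KO replicate 1 (-0.14), WT replicate 1 (-0.10) or WT replicate 4 (-0.07). Akr1b8 averaged 51.8 ± 5.73 CPM in KO and 47.45 ± 9.62 CPM in WT and did not pass (log2 fold change 0.13, adjusted p = 0.57). Akr1b3, the aldose reductase of the polyol pathway, split the KO libraries: it had 232, 300.1, 86.7 and 85.3 CPM in the KO libraries and 181, 209, 196.5 and 168 CPM in WT. It did not pass the test (log2 fold change -0.10, SE 0.38, adjusted p = 0.852), and its sign turned with the scaling, as did that of Akr1e1 (-0.04), a reductase of anhydrofructose. Akr1b7 had 140 counts in KO and 38 in WT and missed the filter, Akr1cl had 7 and 0, Akr1c19 3 and 0 and Akr1c20 2 and 0. Akr1c6, Akr1c21 and Akr1d1 were at 0 in all libraries.

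Of the 13 tested glutathione S-transferase genes 8 rose, and the family had the highest summed level per kilobase of the 5. The pi class led by level per kilobase. Gstp1 (ENSMUSG00000060803, chromosome 19, 4035407 to 4037985, minus strand) had 843, 552, 607 and 574 CPM in the KO libraries and 358, 388, 406 and 332 CPM in WT, with all KO libraries above all WT libraries and KO replicate 1 highest (log2 fold change 0.795, SE 0.18, adjusted p = 0.00709). Gstp2 had 98.6, 65.0, 75.4 and 65.7 CPM in the KO libraries and 50.5, 34.7, 32.7 and 45.0 CPM in WT (log2 fold change 0.90, SE 0.20, adjusted p = 0.00662). Of the 50-base windows, 33.7% of Gstp1 and 54.3% of Gstp2 are shared with another gene, mainly each other, so how their reads divide is uncertain. With WT replicates 1 and 4 summed and 2 and 3 summed, an alternative chosen after seeing the data, neither pi gene passed (adjusted p = 0.0667 and 0.0503).

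In the alpha class, Gsta4, which conjugates the lipid peroxidation product 4-hydroxynonenal, had 32.2, 30.5, 23.6 and 18.5 CPM in the KO libraries and 5.78, 13.4, 12.6 and 5.57 CPM in WT. The genotypes did not overlap (log2 fold change 1.485, SE 0.33, adjusted p = 0.00722). Gsta2 was near the detection limit, at 0.365 to 1.16 CPM in KO and 0 to 0.273 CPM in WT (log2 fold change 2.83, SE 0.89, adjusted p = 0.0286). Its call was lost when KO replicate 3 or 4 or WT replicate 1, 3 or 4 was left out (adjusted p between 0.0595 and 0.0742), its fold change was 3.72 without WT replicate 2, and 49.8% of its windows are shared with other genes. Gsta1, with 90.5% shared, had 4.33, 0.974, 4.45 and 3.64 CPM in the KO libraries and 0.957, 2.59, 2.22 and 0.461 CPM in WT and did not pass (log2 fold change 1.10, SE 0.60, adjusted p = 0.164). Gsta3 had 18 counts in KO and 0 in WT, and KO replicate 1 was also at 0. Its KO mean was at least 1.29-fold above a floor of 3 counts per library. Without the filter Gsta3 did not pass (edgeR adjusted p = 0.0671).

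In the mu class 3 of 5 tested genes rose. Gstm1 (ENSMUSG00000058135, chromosome 3, 108012255 to 108017973, minus strand) had 161, 158, 118 and 115 CPM in the KO libraries and 84.2, 117, 96.6 and 53.8 CPM in WT (log2 fold change 0.65, SE 0.23, adjusted p = 0.0478). Gstm2 had 62.7, 37.9, 40.3 and 29.9 CPM in the KO libraries and 26.0, 32.1, 21.9 and 19.6 CPM in WT (log2 fold change 0.78, SE 0.24, adjusted p = 0.0289). For both the genotypes overlapped, and each call was lost in several fits with 1 library left out. Gstm1 passed only when WT replicate 2 was the library left out, with adjusted p between 0.0545 and 0.118 otherwise, and Gstm2 was lost without KO replicate 1 or 3 or WT replicate 1, 3 or 4 (0.0509 to 0.0843). Gstm6 was low, at 0.6635 to 1.16 CPM in KO and 0 to 0.221 CPM in WT (log2 fold change 3.05, SE 0.83, adjusted p = 0.0165), and was lost without KO replicate 3 (adjusted p = 0.0518). It was larger without WT replicate 1 (3.76). Gstm7 had 4.71, 2.22, 2.04 and 2.14 CPM in the KO libraries and 0.589, 1.47, 1.08 and 0 CPM in WT. The genotypes did not overlap, but the test did not pass (log2 fold change 1.815, SE 0.80, adjusted p = 0.0933). Gstm7 passed with the DESeq2 Wald test (adjusted p = 0.0433) and with limma-voom (0.049). Gstm5 did not pass (0.52, adjusted p = 0.244). The promoter of Gstm2 is shown because it holds GGAATG 2 times, with 1 match on each strand in capitals (RefSeq, GRCm38.p6, chr3:107986371-107986670, minus strand).
Gstm2: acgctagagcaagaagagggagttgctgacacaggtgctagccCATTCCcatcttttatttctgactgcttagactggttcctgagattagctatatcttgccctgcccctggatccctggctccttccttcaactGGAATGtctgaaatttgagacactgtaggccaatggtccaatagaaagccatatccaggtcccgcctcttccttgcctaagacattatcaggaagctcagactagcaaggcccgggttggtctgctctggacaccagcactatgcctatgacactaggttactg

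The omega class split between neighbours. Gsto2 (ENSMUSG00000025069, chromosome 19, 47865534 to 47886324, plus strand), a dehydroascorbate reductase, had 4.74, 7.92, 6.46 and 6.72 CPM in the KO libraries and 0.846, 0.922, 1.15 and 0.994 CPM in WT, both tight groups without overlap (log2 fold change 2.72, SE 0.27, adjusted p = 0.000334). Gsto1, its neighbour, far more abundant per kilobase, had 231.5, 144, 146 and 141 CPM in the KO libraries and 167, 166, 162 and 215 CPM in WT (log2 fold change -0.10, SE 0.19, adjusted p = 0.702), with a positive sign under upper-quartile or library-size scaling. Both lie opposite Cfap43, and the sources used here do not state whether counting used strand. Gstz1, maleylacetoacetate isomerase of tyrosine breakdown, averaged 23.4 ± 1.75 CPM in KO and 20.4 ± 3.14 CPM in WT (SD, n = 4 each) and did not pass (log2 fold change 0.20, adjusted p = 0.321). No theta or kappa gene was tested. Gstt1 had 5 counts and Gstt3 had 2, all in KO, while Gstt2, Gstt4, Gstk1 and Gstp3 were at 0. Gstm3 had 25 counts in KO and 10 in WT and Gstm4 had 2 and 0.

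Aldehyde dehydrogenase genes moved in both directions, with 7 of 13 tested higher and 1 lower. Of the retinaldehyde dehydrogenases, Aldh1a1 (ENSMUSG00000053279, chromosome 19, 20492715 to 20643465, plus strand) had 4.14, 14.2, 5.82 and 4.95 CPM in the KO libraries and 0.331, 0.273, 0.236 and 0 CPM in WT (log2 fold change 5.09, SE 0.71, adjusted p = 0.00111). KO replicate 2 was the highest and KO replicate 1 the lowest of the KO libraries, and all were well above WT. Aldh1a7, a neighbour and close relative of Aldh1a1, shares 7.49% of its 50-base windows with that gene. It had 155 counts in KO and 3 in WT, a ratio of 44.9. The 95% exact binomial interval of 15.1 to 220.0 covers counting error only. Aldh1a7 passed the test (edgeR adjusted p = 0.00303). Its fitted log2 fold change of 5.31 rests on the 3 counts of WT replicate 2. The value was 8.21 without that library and 4.68 without KO replicate 1. Aldh1a3 had 22 counts in KO and 2 in WT, and Aldh1a2 was at 0. The Aldh1a1 promoter is shown as the retinoid gene among the increased members that hold the letters of GGAATG, on the opposite strand in capitals (RefSeq, GRCm38.p6, chr19:20492333-20492632, plus strand).
Aldh1a1: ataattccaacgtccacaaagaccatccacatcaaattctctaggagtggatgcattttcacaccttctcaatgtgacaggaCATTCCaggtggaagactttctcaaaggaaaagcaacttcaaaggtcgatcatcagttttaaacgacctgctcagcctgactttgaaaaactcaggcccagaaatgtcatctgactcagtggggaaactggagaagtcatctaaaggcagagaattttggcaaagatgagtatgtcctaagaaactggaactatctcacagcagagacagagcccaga

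Aldh3a1 (ENSMUSG00000019102, chromosome 11, 61207537 to 61218421, plus strand), an aldehyde dehydrogenase of cornea and stomach that dioxin-type compounds induce in liver, was the increased Aldh gene of highest level per kilobase. It had 78.7, 76.7, 135 and 131 CPM in the KO libraries and 7.25, 24.9, 20.35 and 12.8 CPM in WT. All KO libraries were above all WT libraries, and KO replicates 3 and 4 were higher than 1 and 2 (log2 fold change 2.69, SE 0.38, adjusted p = 0.00117). Aldh3b1 had 17.8, 12.7, 12.9 and 13.1 CPM in the KO libraries and 2.50, 6.59, 5.29 and 0.923 CPM in WT (log2 fold change 1.88, SE 0.49, adjusted p = 0.0132). Aldh3a2, the fatty aldehyde dehydrogenase beside Aldh3a1, did not pass, at 51.55 ± 3.51 CPM in KO and 57.4 ± 10.1 CPM in WT (log2 fold change -0.155 (SE 0.15), positive under upper-quartile or library-size scaling).

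Among the Aldh genes of amino acid and folate metabolism, Aldh6a1, Aldh7a1 and Aldh1l1 rose. Aldh6a1, which breaks down valine and thymine products, had 7.58, 14.5, 16.0 and 15.5 CPM in the KO libraries and 5.04, 4.44, 3.40 and 3.34 CPM in WT (log2 fold change 1.72, SE 0.28, adjusted p = 0.00199). Aldh7a1, antiquitin of lysine breakdown, had 34.25, 26.9, 29.55 and 26.5 CPM in the KO libraries and 11.1, 16.7, 18.6 and 9.58 CPM in WT (log2 fold change 1.065, SE 0.23, adjusted p = 0.00594). In both the genotypes did not overlap. Aldh6a1 lies opposite Bbof1 and Aldh7a1 opposite Phax, so the limit on strand holds for them too. Aldh1l1, the cytosolic 10-formyltetrahydrofolate dehydrogenase, was at 0.947 to 1.40 CPM in KO and 0 to 0.205 CPM in WT (log2 fold change 3.66, SE 0.79, adjusted p = 0.00622; 4.50 without WT replicate 2). Aldh4a1, which completes proline breakdown, did not pass (0.89, adjusted p = 0.105). It passed without WT replicate 3 (1.18, adjusted p = 0.0491) and with limma-voom as the test (1.08, adjusted p = 0.0473). Of its windows, 30.03% are shared with Gm21969.

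Aldh18a1 (ENSMUSG00000025007, chromosome 19, 40550257 to 40588463, minus strand), the pyrroline-5-carboxylate synthase that starts proline synthesis, was the member that fell. It had 169, 69.0, 130.1 and 153 CPM in the KO libraries and 223.5, 289, 225 and 253 CPM in WT, and KO replicate 2 was the lowest (log2 fold change -0.93, SE 0.25, adjusted p = 0.0161). It passed with each library left out in turn. With the WT libraries summed by resemblance it did not pass (adjusted p = 0.0686). Aldh2, the mitochondrial acetaldehyde dehydrogenase and the most abundant Aldh gene per kilobase, had 798, 750.3, 769 and 690.2 CPM in the KO libraries and 346, 548, 729 and 359 CPM in WT. WT replicate 3 alone overlapped the KO libraries, and the test did not pass (log2 fold change 0.60, SE 0.24, adjusted p = 0.0714). Without WT replicate 3 Aldh2 passed (0.83, adjusted p = 0.0139). It also passed with upper-quartile factors (edgeR adjusted p = 0.0394), library size (0.0409) and the 5 CPM filter (0.0465). The DESeq2 Wald test (adjusted p = 0.034) and limma-voom (0.045) called it higher too, and in the remaining refits it did not pass. Aldh9a1, of carnitine synthesis, averaged 74.0 ± 20.15 CPM in KO and 104 ± 22.6 CPM in WT (SD, n = 4 each) and did not pass (log2 fold change -0.49, SE 0.22, adjusted p = 0.1), but did as lower without KO replicate 1 (-0.71, adjusted p = 0.0135). Aldh16a1 did not pass (-0.37, adjusted p = 0.456). Under the filter, Aldh5a1 had 0 counts in KO and 4 in WT, Aldh8a1 17 and 15, Aldh3b2 2 and 5 and Aldh3b3 2 and 0, and Aldh1b1 was at 0.

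Summed over a family as CPM per kilobase, the level was 65.7 ± 25.3 in KO and 8.53 ± 0.679 in WT for Ces (SD, n = 4 each), a ratio of 7.7. For Fmo it was 2.46 ± 2.55 in KO and 0.141 ± 0.0844 in WT, a ratio of 17.4 that fell to 8.76 without KO replicate 2, and KO replicate 1 (0.192) was within the WT range of 0.0425 to 0.223. The Akr sum was 264 ± 46.9 in KO and 185 ± 29.3 in WT and the Gst sum was 723 ± 146 in KO and 455 ± 28.3 in WT, ratios of 1.43 and 1.59 without overlap of the libraries. The Aldh sum was 288 ± 24.5 in KO and 219 ± 51.9 in WT, a ratio of 1.31 with overlap.

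The make-up of the families differed as well. Ces1d held 51.2 ± 26.2% of the Ces level in KO and 1.46 ± 1.75% in WT, while Ces1g held 10.2 ± 3.35% in KO and 53.0 ± 12.2% in WT (SD, n = 4 each). Fmo2 held 75.02 ± 7.61% of the Fmo level in KO and 5.30 ± 6.44% in WT, and Fmo5 held 12.7 ± 3.62% in KO and 64.6 ± 8.42% in WT. Akr1c18 held 21.8 ± 7.83% of the Akr level in KO and 0.395 ± 0.24% in WT, beside Akr1a1 with 42.4 ± 5.98% in KO and 58.6 ± 5.58% in WT. In the Gst family Gstp1 remained the leading gene, with 57.5 ± 2.11% in KO and 52.7 ± 2.15% in WT. Aldh2 led the Aldh family with 51.2 ± 4.74% in KO and 43.1 ± 6.06% in WT; Aldh3a1 held 18.8 ± 5.13% in KO and 3.68 ± 1.17% in WT, and Aldh18a1 held 10.9 ± 3.12% in KO and 28.7 ± 6.31% in WT.

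**Figure D3:**
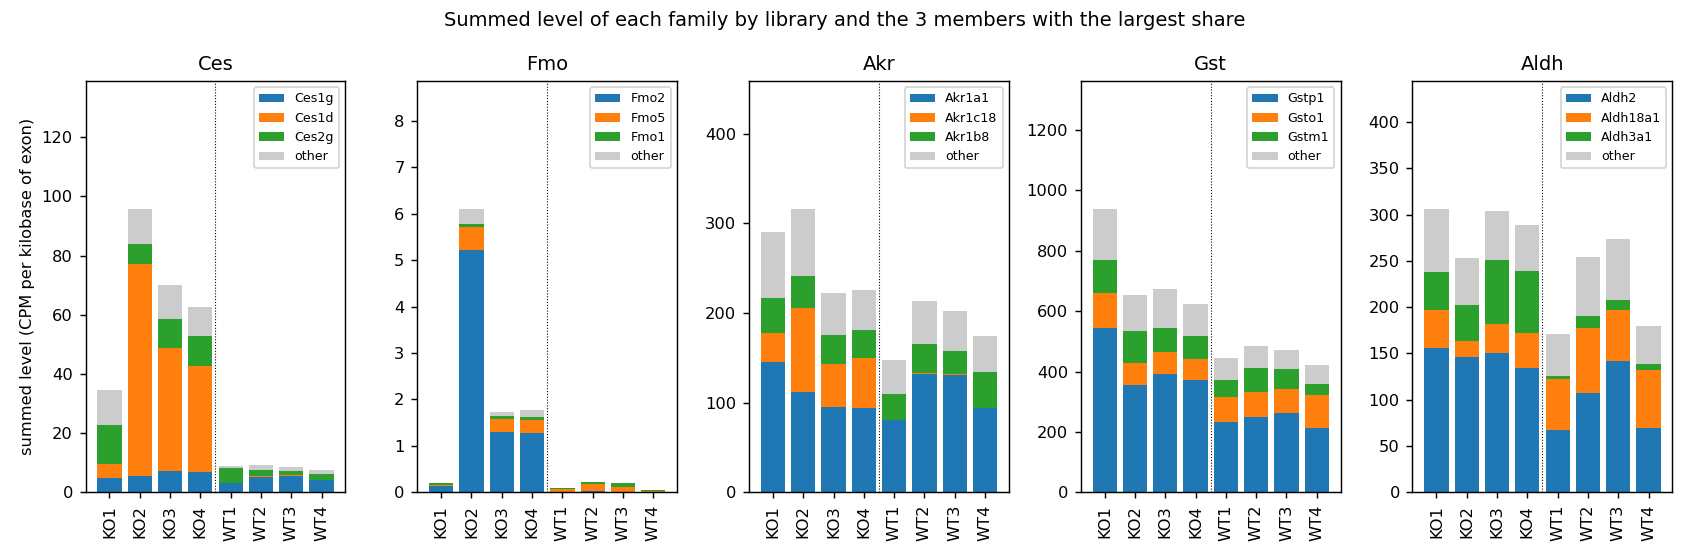
Bars give the summed level of each family in every library (vertical axis, CPM per kilobase of exon, own scale per panel), split into the 3 members with the largest share and the rest; KO libraries are left of the dotted line and WT libraries right of it. Ces1d and Fmo2 fill most of the Ces and Fmo bars of KO replicates 2 to 4, and Gstp1 is the largest part of every Gst bar.

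The libraries within a genotype were not alike for these genes. KO replicate 1 was the highest KO library for 27 of the 46 tested members (58.7%, against 40.9% of all rows). Among the 28 increased members it was the highest for 15 (53.6%, against 18.2% of all increased rows) and the lowest for 9 (32.1%, against 58.6%). The members for which it was lowest include Ces1d, Ces1f, Fmo2, Akr1c18, Akr1c14, Aldh1a1 and Aldh6a1, and those for which it was highest include Ces2e, Ces2g, Akr1c12, Akr1c13, Gstp1 and Gstp2. In WT, replicates 2 and 3 were both above replicates 1 and 4 for 23 members of the 46 (35.4% of all rows) and the reverse held for 2 (4.35%, against 32.8% of all rows). Among the 28 increased members the first order was seen for 12 (42.9%, against 54.1% of all increased rows) and the reverse for 1 (3.57%, against 7.88%). The spread over KO libraries was widest for Fmo2, with a coefficient of variation of 112%, then Fmo5 (72.1%), Ces1d (71.5%), Aldh1a7 (69.8%) and Aldh1a1 (63.9%). The part of these library differences in the results was not tested beyond leaving out each library, under which 24 of the 29 calls were kept each time.

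**Figure D4:**
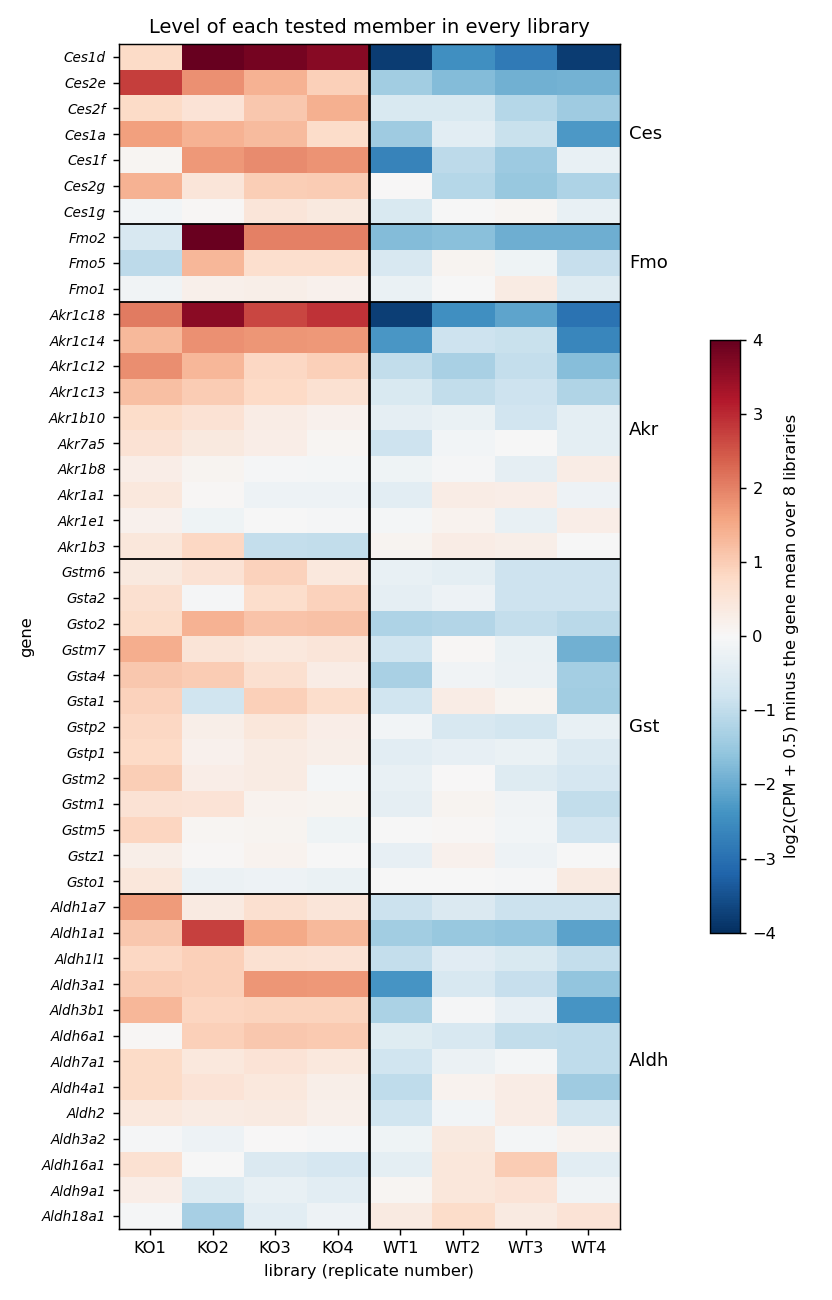
Each row is a tested member and each column a library (KO replicates 1 to 4, then WT replicates 1 to 4); colour gives log2(CPM + 0.5) minus the gene's mean over the 8 libraries, red above and blue below. KO replicate 1 is paler than the other KO libraries for Ces1d and Ces1f, and for Fmo2 it is on the blue side, below the gene's mean. WT replicates 1 and 4 are bluer than 2 and 3 for Akr1c14, Gstm7 and Aldh3b1.

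Most members lie in groups: with a gap of at most 200000 bases, 12 loci of the GENCODE annotation hold 2 or more of them. In the Akr1c cluster (chromosome 13, 4049011 to 4609174) 4 of 5 tested genes rose, and in the Ces1 and Ces5a cluster (chromosome 8, 93020214 to 93535830) 3 of 4. All 3 tested genes rose in the Ces2 to Ces4 cluster (chromosome 8, 104734003 to 105150109) and in the segment with the Aldh3b and Gstp genes (chromosome 19, 3913491 to 4059569). Of all tested rows 20.9% were higher. Ces1a, Ces1d, Ces2e, Ces2f, Akr1c12, Akr1c14 and Akr1c18 were not above the filter in all WT libraries. In that class 44.6% of rows were higher. Most neighbours of these loci did not pass the test. Of the 24 nearest tested genes outside these loci, 3 were higher (20.9% of all rows), 4 were lower (20.6% of all rows) and 17 did not pass. The higher ones were Mmp2 beside the Ces1 cluster, with 351 counts in KO and 0 in WT (at least 25.3-fold), Anxa1 beside Aldh1a1 (0.88) and Usp22 beside Aldh3a1 (0.45). The lower ones were Cgas (-1.60), Ampd2 (-1.16), Prrc2c (-1.09) and Cbfb (-0.445), which lie beside the Gsta, Gstm, Fmo and Ces2 loci.

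The sources used here do not state how reads that match several genes were counted. Of the 46 tested members, 32 share under 5% of their 50-base windows with any other gene model, among them Ces1d (1.08%), Akr1c18 (0.58%) and Fmo2 and Aldh3a1 (0%). Of the 29 called members 18 are in that class. At least 10% is shared by 8 tested members, Gstm1 (18.9%) among them, and their separate levels are uncertain.

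Promoters were found in the RefSeq table for 70 of the 85 members (82 promoters), and 23 of these 70 were increased. The other 15 members had no promoter there and were not searched. Ces1d, Ces1f, Aldh3a1 and Gsta4, all increased, are among those 15. The letters TGACNNNGC, the core of the antioxidant response element that NRF2 binds, occur on either strand in 7 of the 82 member promoters (8.54%), against 12.4% of all 32851 promoters of the same length, and in 0 of the 23 increased members. GCGTG, the core bound by the aryl hydrocarbon receptor, occurs in 18 (21.95%, against 32.4%), and in 6 of the 23 increased members. GGAATG, the TEAD core, occurs in 8 (9.76%, against 14.7%), and in 6 of the 23 increased members. These 6 are Akr1c12, Aldh1a1, Aldh6a1, Ces2f, Gstm2 and Gstm6. TGACNNNGC can hold GCGTG on the opposite strand, as it does in Gstm5. A match or its absence in these 300 bases describes letters only.

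Other detoxification genes did not move as one. Of 22 NRF2 targets outside the 5 families, 1 rose and 7 fell (background 20.9% and 20.6%), with a median log2 fold change of -0.41. Osgin1 rose, at 39.55 ± 3.98 CPM in KO and 9.87 ± 2.29 CPM in WT (SD, n = 4 each). Gclm and Gclc, the subunits of the enzyme that starts glutathione synthesis, fell, with log2 fold changes of -1.85 and -0.78, and so did glutathione reductase Gsr (-0.60; edgeR adjusted p of the 4 between 0.000322 and 0.0173). Of 14 tested regulators, 4 rose and none fell (background 20.9% and 20.6%), with a median of 0.28. These were the nuclear receptor genes Nr1h4 (1.73 (SE 0.41)), Nr1h2 (0.57 (SE 0.14)) and Nr3c1 (0.65 (SE 0.18)) and Cebpd (1.69 (SE 0.32)), with adjusted p from 0.00374 to 0.0177. Nfe2l2, which encodes NRF2, Keap1, its inhibitor, and Ahr did not pass (-0.00, -0.02 and 0.54).

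Of 81 cytochrome P450 genes, the oxidases of the first step of drug metabolism, 14 were tested. Among these 7 rose and none fell (background 20.9% and 20.6%), with a median of 1.03. Cyp4v3 was at 9.92 ± 2.46 CPM in KO and 1.51 ± 0.537 CPM in WT and Cyp4f13 at 19.5 ± 8.07 CPM in KO and 3.06 ± 1.29 CPM in WT. Cyp2c23 (2.79 (SE 0.45)) and Cyp2c65 (2.24 (SE 0.44)) rose as well. Of 16 tested conjugating and reducing enzymes outside the families, 6 rose and 1 fell (background 20.9% and 20.6%), with a median of 0.53. The epoxide hydrolase gene Ephx1 was at 513.5 ± 38.5 CPM in KO and 154 ± 36.45 CPM in WT, and the microsomal glutathione transferase gene Mgst1 at 6.62 ± 2.01 CPM in KO and 0.209 ± 0.150 CPM in WT. Ugt1a6a rose (1.69 (SE 0.38)) and the acetyltransferase gene Nat2 fell (-0.94 (SE 0.27)). Of 12 tested retinoid genes beside Aldh1a, 5 rose and 2 fell (background 20.9% and 20.6%), with a median of 0.71. The retinal reductase Dhrs3 (3.54 (SE 0.60)), the retinoic acid hydroxylase Cyp26b1 (2.60 (SE 0.34)) and the carrier Crabp2 (2.24 (SE 0.40)) rose, and Adh7 fell (-0.875 (SE 0.19)). The edgeR adjusted p of the genes named in the last 3 lists was 0.0204 or less. Some of these genes were low in WT, such as Crabp2 (0.169 to 0.221 CPM) and Mgst1 (0 to 0.337 CPM). The lists were not split by WT level. Among all rows not above the filter in all 4 WT libraries, 44.6% were higher.

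**Figure D5:**
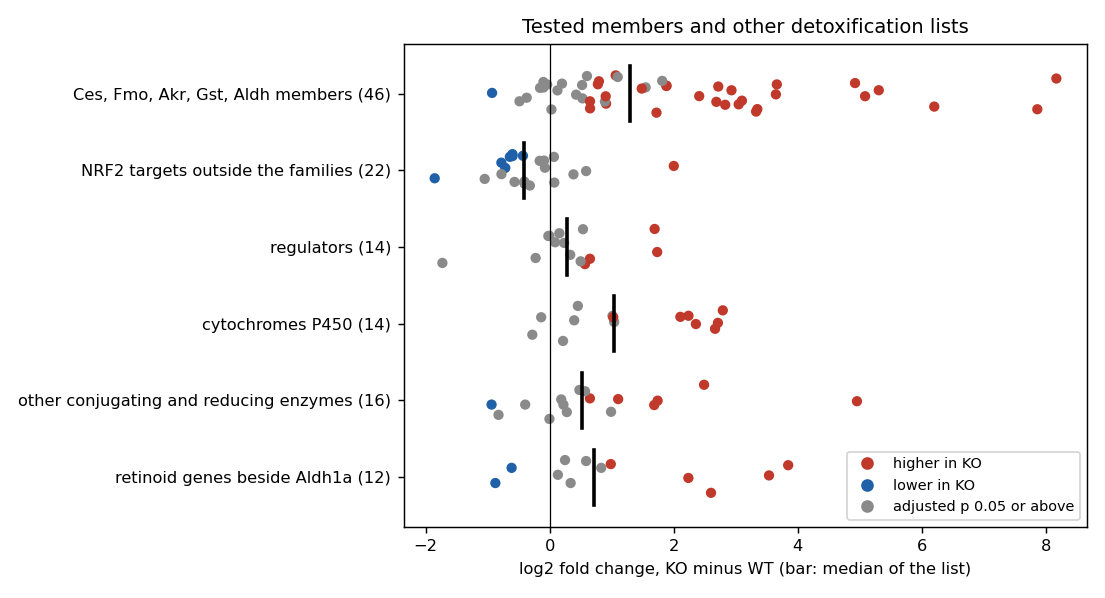
Points are log2 fold changes, KO minus WT (horizontal axis), of the tested genes in the 5 families and in the 5 further lists, with the number tested in parentheses and a bar at each list's median. The medians are 1.29 for the 46 members, -0.41 for NRF2 targets, 0.28 for regulators, 1.03 for cytochromes P450, 0.53 for other conjugating and reducing enzymes and 0.71 for retinoid genes.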

How the data were processed

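Messenger RNA libraries were made with a Yeasen kit from TRIzol-extracted RNA, per the labels' protocols. The submitters' processing notes name HISAT2, StringTie and the GRCm38 build, without versions. The sources used here do not state the counting program, whether it used strand or how it treated shared reads. The authors deposited unnormalized whole-number counts for all 8 libraries, in 2 tables with identical values, of which 1 was used (22036 annotated rows and 4606 unannotated loci). All 85 members were found in GENCODE M21, which gave the coordinates and exon lengths. Promoters came from a RefSeq table on GRCm38.p6.

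Rows passed filterByExpr with its default limits (a count of 10, a total of 15). TMM factors were then computed and edgeR 4.0.16 was run in R 4.3.3 (glmQLFit and glmQLFTest, no covariates). A call needs a Benjamini-Hochberg adjusted p under 0.05 over all 13265 rows tested. The SE is the size of the fold change divided by the root of the F statistic, and the common coefficient of variation was 0.294. Floors are 3 counts per library. The Akr1c12 and Akr1c13 promoters were aligned with free end gaps (match 1, mismatch -1, gap opening -3). A shared window is a stretch of 50 bases in a gene's transcripts that also occurs in those of another gene.

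The members, the lists, the tests and the alternatives were chosen with earlier results of these data known. Named with values are called members whose higher genotype averages 1 CPM or more, the 2 most abundant per kilobase in each family, and the 4 genes of smallest p in each further list. Other tested members are given by fold change and untested ones by counts. The values of 1 untested member are not reported here. Genes named beyond this rule were chosen after their values were seen. The alternatives replaced the scaling (DESeq2 size factors, upper quartile, library size), the filter (none, or 5 CPM in 4 libraries) or the test (DESeq2 1.42.0 with its Wald test, limma-voom with limma 3.58.1). Others added a replicate block, required an adjusted p under 0.01, set a log2 limit of 0.5 (glmTreat) or dropped each library in turn. Summing WT replicates 1 with 4 and 2 with 3 was added after seeing the data.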

Additional observations from a re-analysis of the deposited data

Results flagged for a closer look

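In groups of 4 libraries, a library was singled out where its gap to the nearest other one, on the log2(CPM + 0.5) scale, exceeded Dixon's 95% critical share of the group's range. Of 92 groups (46 tested members in 2 genotypes), 9 met this. The groups share the same 8 libraries and some hold ties at 0, so their number is not set against a chance rate. KO replicate 1 was the library in 6 of the 9. It was low for Ces1f (5.24 CPM, against 17.6 to 19.7 in the other KO libraries), Aldh6a1 (7.58 CPM, against 14.5 to 16.0) and Fmo1 (0.253 CPM, against 0.428 to 0.465). It was high for Aldh3b1 (17.8 CPM, against 12.7 to 13.1), Gstm7 (4.71 CPM, against 2.04 to 2.22) and Gsto1 (231 CPM, against 141 to 146). KO replicate 2 was low for Gsta1 (0.974 CPM, against 3.64 to 4.45). In WT, replicate 4 was high for Gsto1 (215 CPM, against 162 to 167) and replicate 2 was the one with counts for Aldh1a7 (0.102 CPM, against 0). With the other WT libraries at 0, any count would meet the rule for Aldh1a7.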

How the results depend on the processing

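Against 28 members higher in KO as reported, the alternatives gave 21 to 31, except for 18 (of 30 tested) at 5 CPM in 4 libraries. With 1 library left out the higher members numbered 23 to 28 and the lower ones 1 to 2, the second being Aldh9a1 without KO replicate 1. Lower members numbered 2 without the filter (with Ces5a) and 0 with an adjusted p under 0.01, with a fold change limit of 0.5 or with the WT libraries summed in pairs. That sum, added after seeing the data, left 23 higher members, and lost Akr7a5, Gstm1, Gstm2, Gstp1, Gstp2 and Aldh18a1. Among all rows, 1488 were higher and 1248 lower at an adjusted p under 0.01, 1550 and 1053 with the fold change limit, and 1652 and 1482 with WT summed; with 1 library left out, the lower rows numbered 1768 (without KO replicate 3) to 3409. Of the calls over all rows, 50.4% were higher as reported, against 64.6% after upper-quartile and 63.5% after library-size scaling.

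The family medians kept their sign throughout. The Ces median was 3.97 with limma-voom, 3.51 with the replicate block and 2.90 to 3.74 with 1 library left out. The Fmo median was 3.12 without the filter and 3.95 with WT summed, and no Fmo gene was left at 5 CPM. The Akr median was 1.97 without the filter and 0.47 at 5 CPM, and the Gst median was 1.31 without the filter. Of 858 refitted member values, 783 kept direction and call and 45 lost the call. Another 12 gained it (Aldh2, Gstm7, Aldh4a1, Fmo5 and Aldh9a1). The 18 that changed sign were all in genes that did not pass. These were Akr1a1 (-0.139 to 0.13 with 1 library left out, -0.003 with WT summed), Akr1b3 (0.065 with upper-quartile factors, 0.05 with library size, -0.479 to 0.139 with 1 library left out), Akr1e1 (0.138, 0.139, 0.038 at 5 CPM, -0.152 to 0.022 with 1 library left out), Aldh3a2 (0.019 and 0.022) and Gsto1 (0.073 and 0.068), the paired values being for the same 2 scalings. The cause of these moves was not tested.

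The replicate numbers were not found to pair the libraries: same-numbered deviations correlated at -0.0317 to -0.00276. The replicate block gave 26 higher members and 1 lower, with Akr7a5 (adjusted p = 0.0552) and Gsta2 (0.0717) lost. None of the 23 members with counts under the filter exceeded 178 counts in all. The lowest total among tested members was 85, so the total alone did not decide which were tested.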
